A study of Mus musculus with 3 samples.

Results

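The genes described here are the chemokines Ccl2, Ccl7, Cxcl1, Cxcl5 and Cxcl12, the cytokines Il33 and Il6, and Nos2, which makes nitric oxide. They are 8 of the 18193 genes that had a probe set of their own on the array. They were chosen by name, with values from these same arrays already known, so every level and difference below is a description and carries no test. All 12 probe sets annotated with 1 of these symbols alone were used. RNA came from MC3T3-E1, an immortal, fibroblast-like preosteoblast line that the labels place in the calvaria of C57BL/6 mice. The cells were kept for 3 days at 37 °C in 1 of 3 media, with 1 array for each. The base of all 3, and the whole of normal medium, was MEM α containing 10% serum from fetal calves. Osteogenic medium had 2 additions, ascorbic acid 2-phosphate at 150 µM and beta-glycerophosphate at 10 mM, which supply vitamin C for collagen and phosphate for mineral. The last medium was osteogenic medium with dimethyl sulfoxide (DMSO) at 0.6%, under which, per the labels, alizarin red S staining of mineral was stronger.

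Chemokines are small secreted proteins that draw cells along a gradient. CCL2 and CCL7 of the CC class attract monocytes, which can become osteoclasts. CXCL1 and CXCL5 of the CXC class attract neutrophils, and CXCL12 retains blood stem cells in the bone marrow. IL-33 is a nuclear alarm cytokine of the interleukin 1 family that cells release when damaged, and IL-6 signals through the shared receptor chain gp130 (Il6st). Several of these genes are classical targets of the transcription factor NF-kB, whose signalling is switched on by interleukin 1, TNF or bacterial products.

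The promoters of members that could be found are shown first, with matches to common regulatory motifs marked. The RefSeq promoter table of build GRCm38.p6 held 4 of the 8 members, at 5 start sites. Each run below is the 150 bases before a start site on the plus strand, 5′ to 3′, and capitals mark motif matches.

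Cxcl1, chr5:90891095-90891244: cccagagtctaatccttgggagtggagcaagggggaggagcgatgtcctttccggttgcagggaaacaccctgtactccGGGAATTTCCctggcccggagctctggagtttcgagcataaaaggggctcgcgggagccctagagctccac
Il6, chr5:30012964-30013113: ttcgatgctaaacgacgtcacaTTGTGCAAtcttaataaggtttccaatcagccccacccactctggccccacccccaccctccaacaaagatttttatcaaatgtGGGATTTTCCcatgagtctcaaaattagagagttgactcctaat
Il33, first start, chr19:29924963-29925112: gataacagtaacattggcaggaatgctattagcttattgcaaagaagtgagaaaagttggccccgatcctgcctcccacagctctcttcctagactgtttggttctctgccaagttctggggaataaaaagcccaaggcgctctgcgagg
Il33, second start, chr19:29945640-29945789: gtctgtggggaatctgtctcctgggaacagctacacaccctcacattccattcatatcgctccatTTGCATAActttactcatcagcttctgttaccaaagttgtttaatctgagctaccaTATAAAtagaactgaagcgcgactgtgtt
Cxcl12, chr6:117168385-117168534: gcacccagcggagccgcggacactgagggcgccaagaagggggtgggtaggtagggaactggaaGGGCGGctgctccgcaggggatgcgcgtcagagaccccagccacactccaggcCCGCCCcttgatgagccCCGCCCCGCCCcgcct

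The 250 bases before each start were searched on both strands for a kappaB form (GGGA, any base, then TTTCC), the TATA box (TATAAA), an AP-1 form (TGANTCA), a C/EBP form (TTNNGCAA) and the GC box (GGGCGG). The kappaB letters stood 71 to 62 bases before the start of Cxcl1 and 44 to 35 bases before that of Il6. Of all 32851 promoter windows of this length, 0.356% held them. The C/EBP letters were found at Il6, 128 to 121 bases before the start, and on the opposite strand at the second start of Il33, with a share of 9.56% over all windows. Il6 also held AP-1 letters 249 to 243 bases before its start, outside the run shown, and 6.75% of all windows did. The second Il33 start had a TATA box 29 to 24 bases before it, and the first had one far upstream, at 203 to 198 bases. TATA letters occurred in 12.4% of windows. Cxcl12 had 5 GC boxes, of which the pair nearest the start overlap, and 32.7% of windows held at least 1. These matches describe letters only, and which Il33 start the cells used cannot be told from the array.

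The deposited values are on a log2 scale. A probe set was called above the floor when its value exceeded 3.54, the pooled median of the 45101 probe sets on the 3 arrays, which stands in for a detection call. Of the 12 probe sets, 5 were above the floor on all 3 arrays, 4 on some and 3 on none. By gene, Ccl2, Cxcl1 and Cxcl12 were above it on every array, Ccl7, Il33 and Nos2 on some, and Cxcl5 and Il6 on none. The probe set with the highest mean stood for a gene, lower values were raised to the floor before differences were taken, and a difference with 1 array under the floor is a bound, written "at least". A gene was counted as changed at a log2 difference of 1, which is 2-fold.

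**Figure D1:**
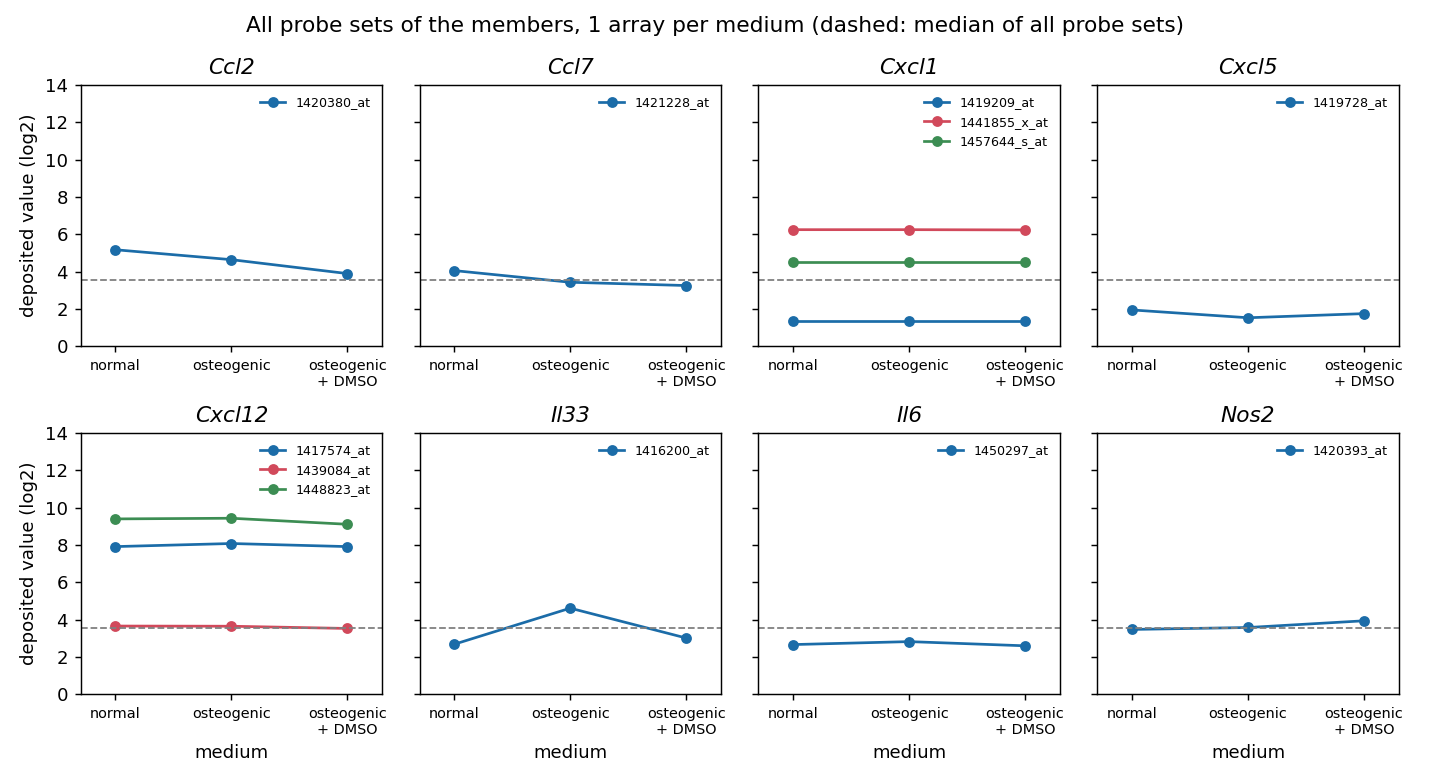
Deposited log2 value (vertical axis) of every probe set of the 8 genes in the 3 media (horizontal axis), 1 array per medium; the dashed line is the floor of 3.54. Ccl2 steps down from 5.17 to 3.90, Il33 stands above the floor in osteogenic medium alone, and Cxcl5 and Il6 lie under it throughout.

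The markers of the cells were read on the same arrays. Of 4 osteoblast genes measured, Sp7, Alpl, Col1a1 and Ibsp, all were above the floor on every array, and Alpl went from 6.61 to 8.31 to 9.02. Of 11 macrophage markers 5 were above it on every array, namely Csf1r, Cd14, Lyz2, Fcer1g and Laptm5. The other 6, Ptprc, Itgam, Adgre1, Cd68, Tyrobp and Aif1, were under it on all 3. Of endothelial markers 1 of 6 was above it on the array of normal medium (Kdr, 3.66) and none on the others, and of mast cell markers 0 of 3 were. Of 4 T cell markers 3 were above it on the array of normal medium and 2 on the others, Cd4 at 4.19, 4.38 and 4.19 and Cd8a at 4.19 on each, while the other probe sets of both were under it throughout. The medians of the arrays were 3.54, 3.58 and 3.54. Without replicate cultures the spread between cultures is unknown. The difference between the 2 brightest probe sets of a gene is taken within the same RNA, so it holds no spread between cultures. It mixes technical spread with any difference between the transcripts that the probe sets match. Its SD was taken over 571 dim genes, with a mean within 2 log2 units of the floor and both probe sets above it on all 3 arrays. The SD was 0.22 for osteogenic minus normal medium and 0.20 for DMSO within osteogenic medium. It was 0.27 for osteogenic medium with DMSO against normal medium. Genes that cross the floor, as Il33, Ccl7 and Nos2 do, are not covered by these values. Of the 8 members, 6 have a single probe set and so lack even this comparison of probe sets.

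Il33 was the member above the floor in osteogenic medium alone. Its single probe set read 2.69 in normal medium, 4.62 in osteogenic medium and 3.02 in osteogenic medium with DMSO. The middle value is the high one, and the outer values are both under the floor. It rose by at least 1.08 on the log2 scale, at least 2.11-fold, with osteogenic medium, and with DMSO it was lower by the same bound. The unfloored differences were 1.93 and -1.60, the second taken from a value with DMSO that 853 probe sets of that array shared. Both calls rest on where the floor lies, since with the floor at the 60th percentile, 4.48, the bound shrank to 0.14 in each direction, and at the 40th percentile, 2.85, the rise was at least 1.77. With osteogenic medium 1 member of the 6 rose 2-fold and 0 fell, where 0.471% of the 11462 genes above the floor on some array rose and 0.183% fell. With DMSO 1 member fell and 0 rose, where 0.55% of these genes fell and 0.0523% rose. The members were chosen from these comparisons, so nothing is read from the shares. The receptor accessory chain Il1rap, which IL-33 shares with interleukin 1, read 6.12, 6.15 and 5.54, a difference of -0.61 with DMSO, while its other probe set above the floor gave a bound of -0.48.

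Ccl2 took the opposite course in osteogenic medium. Its probe set read 5.17 in normal medium, 4.64 in osteogenic medium and 3.90 with DMSO, so each medium stood below the one before. The middle value was shared by 78 probe sets of that array. The steps were -0.53, or 1.44-fold lower, and -0.74, or 1.68-fold lower. At a 1.5-fold threshold the second step would count, so that 2 members, Ccl2 and Il33, were lower with DMSO, where 2.11% of genes were. Neither step reached 2-fold, and with 1 array and 1 probe set neither can be set against a spread between cultures. Across both steps, from normal medium to osteogenic medium with DMSO, Ccl2 fell 2.42-fold, a change of -1.28. In that comparison 1 member of 6 fell 2-fold and 0 rose, where 1.33% of the 11462 genes fell and 0.602% rose. A change at least as large in either direction was found in 1.09% of these genes, and in 1.30% of the 3146 dim ones. Here dim means a floored mean within 2 log2 units of the floor, so genes under it on some arrays are included. Ccl2 was chosen with its values known, so nothing is read from these shares. With the floor at 4.48 the fall became a bound of -0.69 and was no longer counted.

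Ccl7, a second monocyte attractant, lies next to Ccl2 in the gene order of chromosome 11 in GRCm38.p6. It read 4.06 in normal medium, 3.43 in osteogenic medium and 3.26 with DMSO. Only the first value was above the floor, so the difference from normal medium was a bound, -0.51 or lower, in each osteogenic medium, and the step with DMSO could not be measured. The unfloored differences were -0.62 and -0.18. Its value in normal medium was shared by 282 probe sets of that array. The next genes of the cluster, Ccl11, Ccl12 and Ccl8, were under the floor on all 3 arrays, as was Ccr2, the receptor of CCL2 and CCL7.

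The macrophage markers were read beside Ccl2 and Ccl7. Summed on a linear scale, all 11, of which 6 are under the floor, read 179, 155 and 145 in the same order of media. Of the 5 above the floor 3 stood below 0, 1 above and 1 was equal with osteogenic medium. With DMSO 4 stood below 0 and 1 was equal, and 0 changed 2-fold in either comparison. Over all 11462 genes above the floor on some array, 38.5% stood below 0 with osteogenic medium and 30.2% with DMSO. Lyz2, the lysozyme, read 5.96, 5.57 and 5.40. Laptm5, a lysosomal protein of blood cells, read 4.75, 4.36 and 4.15, while its other probe set above the floor read 3.74, 3.74 and 3.77. Csf1r, the receptor of macrophage growth factor, read 4.66, 4.41 and 4.41, and its other probe sets differed by 0.00 with osteogenic medium. Cd14 read 4.54, 4.58 and 4.54, and Fcer1g 4.06, 4.06 and 3.95. Their part in the differences of the chemokines was not tested. In bulk RNA, fewer cells of a type and less RNA per cell cannot be told apart.

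Among the CXC chemokines, Cxcl12 was measured best. Its brightest probe set, 1448823_at, read 9.40 in normal medium, 9.43 in osteogenic medium and 9.11 with DMSO. The second, 1417574_at, read 7.91, 8.08 and 7.91, and the third, 1439084_at, 3.66, 3.65 and 3.53, the last under the floor. With DMSO the differences were -0.32, -0.16 and a bound of -0.11, so all 3 probe sets pointed down and none was near 2-fold. Osteogenic against normal medium gave 0.04, 0.16 and -0.01, with no common direction, and centring the arrays on their medians turned the first value to -0.0043. The SD between probe sets was 0.19 in that comparison and 0.15 with DMSO, over 5183 genes with 2 probe sets above the floor on all 3 arrays.

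Of the receptors of CXCL12, 1 was above the floor. Ackr3, which binds CXCL12 and removes it from the surroundings, read 7.09 in normal medium, 7.06 in osteogenic medium and 5.69 with DMSO. It fell 2.58-fold with DMSO, a change of -1.37, and lay between -1.33 and -1.38 under the other scalings and floors tried. It was left with no probe set when those with shared-probe marks were dropped. It has 1 probe set, whose name ends in _s_at, the maker's mark for a probe set that can match transcripts of more than 1 gene. Cxcr4, the signalling receptor of CXCL12, read 2.08 on every array, under the floor. The scavenging receptor Ackr4, which binds other chemokines, read 6.35, 6.31 and 5.95, with -0.36 under DMSO, while its other probe sets above the floor gave -0.48 and -0.10.

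Cxcl1 gave no interpretable change. Its 3 probe sets disagreed on whether the gene was above the floor: 1441855_x_at read 6.25, 6.25 and 6.23, 1457644_s_at read 4.54 on every array, and 1419209_at read 1.38 on every array. The brightest carries the mark for probes that can pick up unrelated transcripts, and the unmarked probe set is the one under the floor. Values equal on all arrays are common here, at 37.4% of the 45037 probe sets that are not controls, and the reading of 1.38 was shared by 1633 probe sets on the array of normal medium. Cxcl5 read 1.95, 1.53 and 1.75, all under the floor, so no difference was taken. In gene order both lie in 1 cluster on chromosome 5 with Ppbp, Pf4, Cxcl3, Cxcl15 and Cxcl2, and all 5 of these neighbours were under the floor on every array. So was Cxcr2, the receptor of CXCL1 and CXCL5. The kappaB letters printed above for Cxcl1 thus belong to a gene whose level these probe sets do not settle.

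Il6 read 2.67 in normal medium, 2.83 in osteogenic medium and 2.60 with DMSO. All were under the floor, and no difference was taken. Genes that receive and pass on signals of the IL-6 family were above it. Il6st, the shared chain gp130, read 8.15, 7.56 and 7.52, a difference of -0.59 with osteogenic medium that its other 3 probe sets gave as -0.43 to -0.49. The kinase Jak1 differed by -0.48 there, with -0.37 and -0.83 on its other probe sets, and by 0.00 with DMSO. Il6ra, the chain specific to IL-6, read 3.96, 4.86 and 4.92, higher by 0.89 with osteogenic medium, and its second probe set by 0.35. It is named because it is the receptor of a member and was chosen after its values were seen. Socs3, the feedback inhibitor that STAT3 induces, read 8.28, 8.16 and 7.39, and its 3 probe sets differed by -0.78, -0.80 and -0.68 with DMSO. Osmr, the oncostatin M receptor, differed by -0.69 with DMSO, with its other probe set above the floor at -0.15. Stat3 itself differed by 0.17 and -0.16. Of the 15 measured genes of this family 0 changed 2-fold in either comparison, 10 stood above 0 with osteogenic medium and 9 below 0 with DMSO, and the medians were 0.05 and -0.05. Over all 11462 genes 36.3% stood above 0 with osteogenic medium and 30.2% below 0 with DMSO, with medians of 0.00.

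Nos2 encodes the inducible nitric oxide synthase. Its probe set read 3.48 in normal medium, 3.58 in osteogenic medium and 3.94 with DMSO, the last being the highest. It was higher by 0.36 with DMSO, 1.28-fold, and by at least 0.40 against normal medium, and neither reached 2-fold. The reading in osteogenic medium, 3.58, equalled the median of that array and was shared by 251 probe sets there. Centring the arrays on their medians turned the bound for osteogenic against normal medium to 0.00. Among the 3146 dim genes 7.22% differed at least as much with DMSO, and nothing is read from this share, as Nos2 was chosen with its values known. The arginine transporter Slc7a2, which supplies the substrate, read 7.70, 7.57 and 7.19, a difference of -0.37 with DMSO, while its other probe sets above the floor gave 0.46 and -0.16. Slc7a1, another such transporter, read 8.96, 8.51 and 8.54. Ddah2, which breaks down natural inhibitors of nitric oxide synthases, read 7.91, 7.77 and 7.51. Arg1, Arg2, Ass1 and Gch1 were under the floor on all 3 arrays. Of the 7 measured genes of nitric oxide and arginine handling, 6 stood below 0 with osteogenic medium and 1 was equal, with a median of -0.14, where 38.5% of all 11462 genes stood below 0. With DMSO 4 stood below 0 and 2 above, with a median of -0.07, where 30.2% of all 11462 genes stood below 0 and 40.4% above. Of the 7, 0 changed 2-fold in either comparison.

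**Figure D2:**
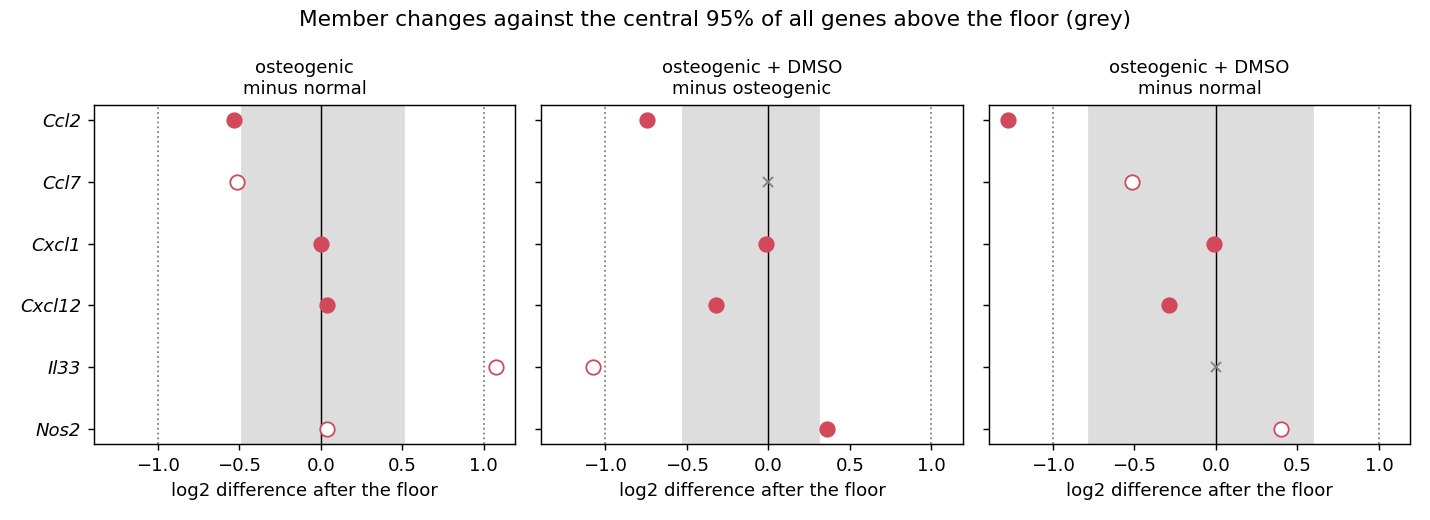
Log2 difference after the floor (horizontal axis) for the 6 members above the floor on some array, in the 3 comparisons; filled points were measured on both arrays, open points are bounds, crosses are under the floor on both, and grey covers the central 95% of the 11462 genes above the floor. Il33 lies at 1.08 and -1.08 in the first panels, and Ccl2 at -0.53, -0.74 and -1.28.

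Side by side, the members did not share one course. With osteogenic medium Ccl2 and Ccl7 were lower, Il33 rose, and Cxcl1 and Cxcl12 differed by 0.00 and 0.04. Nos2 was higher by a bound of at least 0.04, or 0.10 without the floor, and by 0.00 with the arrays centred on their medians. With DMSO, Ccl2, Il33 and Cxcl12 were lower, Nos2 was higher, and Cxcl1 differed by -0.01. The median over the 6 members was 0.02 with osteogenic medium and -0.17 with DMSO, against 0.00 over all genes above the floor in each. These medians include bounds and, with DMSO, a 0 for Ccl7, which was under the floor on both arrays. Since the members were chosen with these values known, nothing is read from the contrast. Both comparisons contain the array of osteogenic medium without DMSO, with opposite signs, so their values are not independent.

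Likeness was measured as the distance between pairs of floored differences, over 11033 other genes above the floor on some array and 3 arrays. Genes with clone-number names were left out, so nearest means nearest among the rest. Both differences of Il33 are bounds set by the floor, so genes near it match that bound and not its unfloored course. By this measure the gene nearest to the bound was Angpt4, an angiopoietin, at 4.48, 5.57 and 4.41. It was followed by Cd80, a costimulatory molecule of immune cells, at 5.20, 6.24 and 5.28, and Plekhb1 at 3.97, 5.01 and 4.06. The distances were 0.08, 0.12 and 0.13. The other probe set of Angpt4 showed bounds of 0.33 only, whereas those of Cd80 above the floor gave 0.96 and 1.09 with osteogenic medium and -0.96 and -1.18 with DMSO. Nearest to Ccl2 were Gas6, a ligand of TAM receptors, at 10.20, 9.71 and 9.03, the guanylate-binding protein Gbp6 at 4.88, 4.27 and 3.18, the last under the floor, and the actin-binding Ablim1 at 7.63, 7.05 and 6.38. Their distances were 0.08, 0.08 and 0.09. A second probe set of Ablim1 gave -0.61 and -0.42, and that of Gas6 0.00 and -0.08. The second step of Gbp6 is a bound, and its other probe set gave a bound of -0.33 and then was under the floor on both arrays. With 3 arrays the distance rests on 2 differences for each gene.

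**Figure D3:**
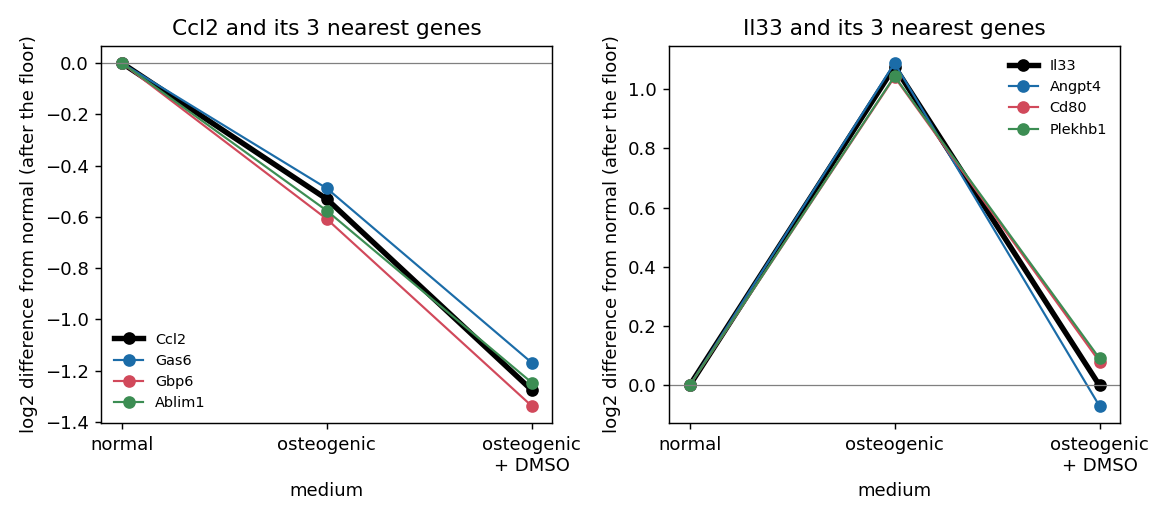
Log2 difference from normal medium after the floor (vertical axis) across the 3 media (horizontal axis, 1 array each) for Ccl2 and for Il33 (black), whose differences are bounds, with their 3 nearest genes by Euclidean distance. The genes near Ccl2 step down through both media, and those near Il33 rise by 1.04 to 1.09 in osteogenic medium and return to within 0.1 of normal medium with DMSO.

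Other chemokine ligands were mostly dim. Of 16 other CC ligands with a probe set 6 were above the floor on some array, with readings of 3.41 to 4.52 and medians of 0.00 in both comparisons. Of 14 other CXC, CX3C and XC ligands 3 were above it. Cx3cl1, the membrane-bound fractalkine, read 7.31, 7.02 and 6.34, so it took the same order of media as Ccl2, with differences of -0.29 and -0.68. Its other probe set above the floor differed by -0.04 and -0.37. Cxcl16, another membrane-bound chemokine, read 5.32, 5.25 and 5.04. Of 20 chemokine receptors 4 were above the floor, and Ackr3 alone of these fell 2-fold with DMSO.

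In NF-kB signalling itself, of 15 measured subunits, kinases and inhibitors 0 changed 2-fold in either comparison, and the median was 0.00 in both. The subunit Rela read 8.07, 8.16 and 8.16, and the inhibitor Nfkbia, itself a rapid NF-kB target, 8.95, 9.06 and 8.95. The kinase Ikbkb read 7.56 on every array. The inhibitor Nfkbie read 7.29, 6.91 and 6.48, and Tnip1, which restrains the pathway, 7.91, 7.28 and 7.10. With DMSO 7 of the 15 stood below 0, 2 above and 6 were equal, where 30.2% of all 11462 genes stood below 0 and 40.4% above.

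Of other genes that inflammation induces, 7 of 15 were above the floor, while Tnf, Icam1, Lcn2 and Saa3 were among those under it on all arrays. With DMSO 6 of the 7 stood below 0, with a median of -0.39, and 0 reached 2-fold. Vcam1, an adhesion molecule for blood cells, read 9.33, 8.89 and 8.26, falling 2.10-fold from normal medium to osteogenic medium with DMSO. That call was lost, at -0.83, when its 3 probe sets were averaged. The transcription factors Cebpb and Cebpd, which act on promoters such as that of Il6, differed by -0.39 and -0.47 with DMSO. Their other probe sets, also above the floor, gave -0.29 and -0.18. The macrophage growth factor Csf1 differed by -0.26 with DMSO. Sod2, the mitochondrial superoxide dismutase, was higher by 0.23. In the interleukin 1 family 11 of 15 genes were above the floor, while Il1a and Il1b were under it on all arrays. With DMSO 8 of the 11 stood below 0 and 3 were equal, with a median of -0.12 and 0 past 2-fold. Il18 read 7.42, 7.31 and 6.89, and the adaptor Irak2 6.06, 5.94 and 5.36, while Myd88 read 6.99, 7.07 and 6.99. Over all 11462 genes 30.2% stood below 0 with DMSO, and the lists share arrays and were chosen with results known, so nothing particular to them is read from these counts.

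**Figure D4:**
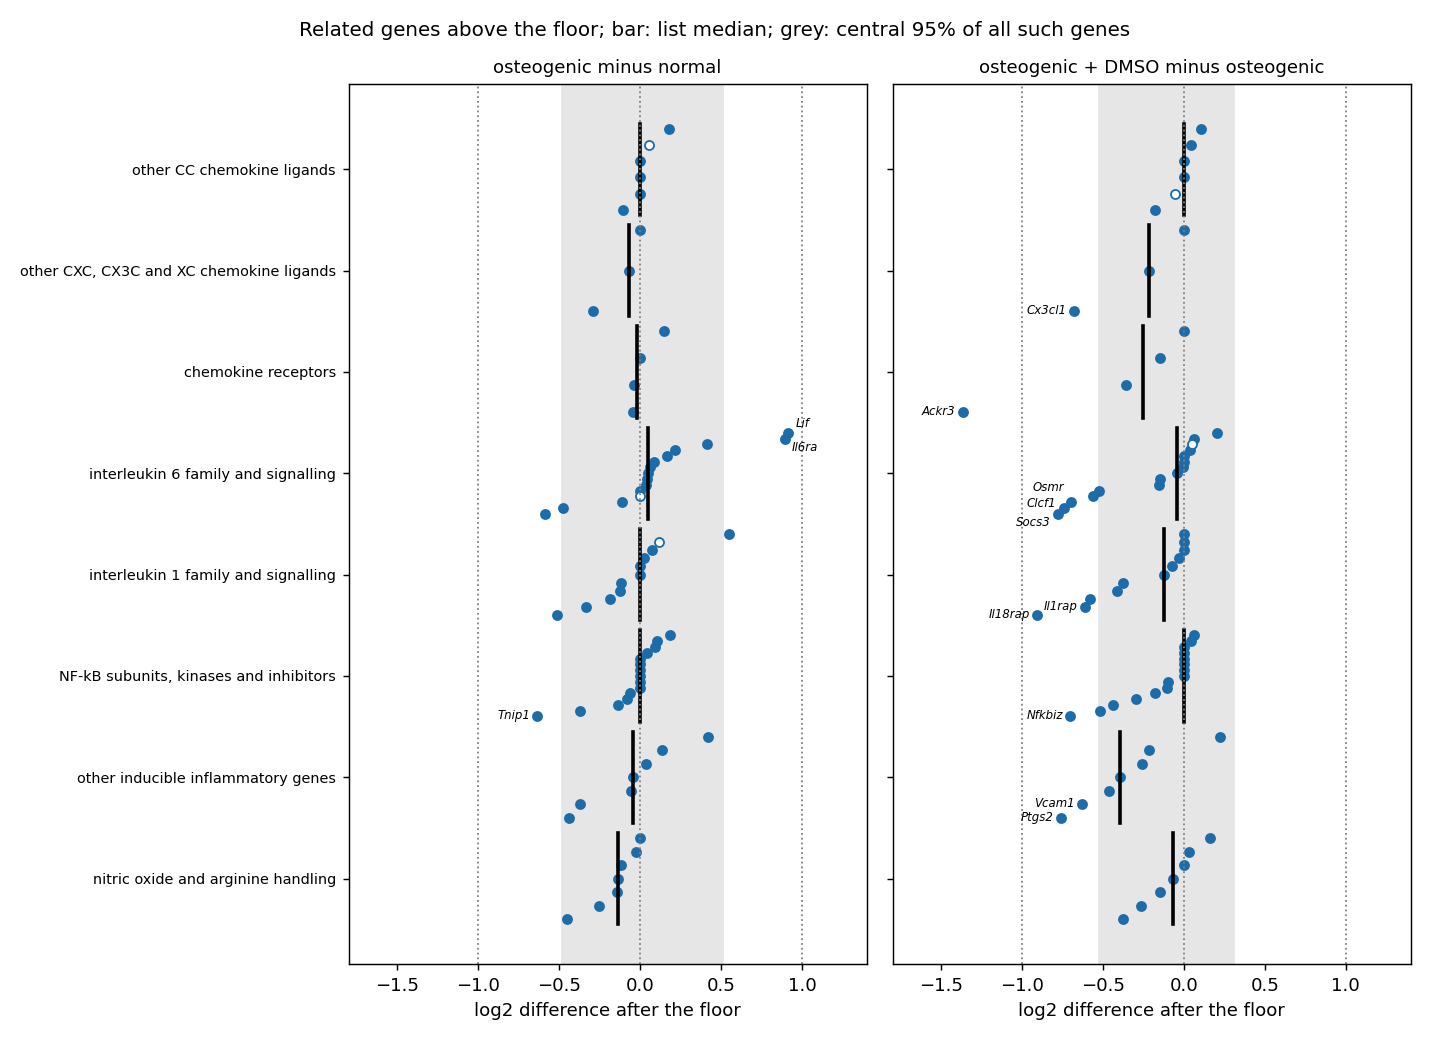
Log2 difference after the floor (horizontal axis) for every gene of 8 related lists above the floor on some array, for osteogenic minus normal medium (left) and DMSO within osteogenic medium (right); black bars are list medians, open points are bounds, and grey covers the central 95% of the 11462 genes above the floor. Ackr3 at -1.37 is the 1 gene past 2-fold, and the inflammatory list has the lowest median, -0.39, on the right.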

How the data were processed

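Total RNA (RNA integrity number over 9.5) was labelled from 500 ng with a 3′ IVT kit and hybridised to Affymetrix mouse arrays, per the labels. The deposited values were read as log2 from their range of 0.65 to 13.4; how the authors summarised and normalized them is not given in the sources used here. Probe sets were named from the 2016 platform annotation; 34945 had 1 symbol, 932 several and 9160 none. Control probe sets were left out of genes. The floor, the choice of probe set and the 2-fold threshold are as described above, in 3 comparisons of single arrays, so no test was possible, and the precision is limited by having so few arrays. Members, gene lists and the rule for named genes (members; per list the 6 brightest and any changed 2-fold; the 3 nearest genes of members spanning 2-fold) were chosen with earlier results of these data known. Other list genes are named where they are receptors of members or stand under the floor, after their values were seen. Alternatives were other floors, scalings, probe set rules and a 1.5-fold threshold. The counting was tested on simulated data in which only bright genes were changed. That test does not cover changes in dim genes such as Ccl2 and Il33. Analyses used Python 3.11.15, numpy 2.4.6, pandas 2.3.3, matplotlib 3.10.9, R 4.3.3 and limma 3.58.1.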

Additional observations from a re-analysis of the deposited data

How the results depend on the processing

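With the floor at the 60th percentile 0 members changed 2-fold in each of the 3 comparisons, against 1 in each as reported. For Il33 the higher floor shrank the bound, and for Ccl2 the lower reading came under the floor. At a 1.5-fold threshold 2 members, Ccl2 and Il33, were counted as lower with DMSO. No other alternative changed a count: the floor at the 40th percentile, no floor, centring on the medians, quantile normalization, cyclic loess, the mean of a gene's probe sets, and leaving out probe sets ending in _x_at, _s_at or _a_at, which was chosen after seeing the data and leaves Ackr3 with no probe set. Of 130 member values under alternatives, 114 moved by less than the SD between probe sets, 16 moved by more, and 0 called values changed sign. Many of the 130 could not move, so the 114 are no measure of stability. The 6 members with a single probe set keep their values under the probe set rules, and a lower floor leaves measured differences unchanged. All 16 came from another floor or none. Values under the floor on both arrays gave no value and were not counted as moved. This was so for Ccl7 and Nos2 with the floor at the 60th percentile. It was also so for Cxcl1 without the marked probe sets. Signal over background limits Cxcl5, Il6, Ccl7, Nos2 and Il33, since dim readings have no order. It also limits Ccl2, whose reading with DMSO, 3.90, lay close above the floor of 3.54. No paired analysis was possible because each medium has 1 array.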

Other observations

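Within the IL-6 family, a ligand and its receptor are given here, chosen after their values were seen. Lif, the leukemia inhibitory factor, read 4.48, 5.40 and 4.83 in the 3 media (normal, osteogenic, and osteogenic with DMSO), a course like that of Il33 but under 2-fold in both steps (0.92 and -0.56). The second Lif probe set read 3.32, 3.32 and 3.38, under the floor on every array. Its receptor Lifr gave different answers by probe set. The brightest read 8.48, 8.54 and 8.53, while 1425107_a_at read 5.57, 6.76 and 7.40, higher by 1.19 with osteogenic medium and by 0.63 more with DMSO. The third probe set above the floor differed by 0.00 and -0.10.

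The other genes below were also chosen after their values were seen. Genes near the members in chromosomal order, beyond the chemokine clusters, included Ereg, an EGF receptor ligand close to Cxcl1, at 4.70, 4.79 and 3.87, and Mthfd2l, a mitochondrial folate enzyme beside Cxcl2, at 7.43, 8.20 and 7.78. Lgals9, which encodes galectin 9 and adjoins Nos2, read 7.69, 7.53 and 7.05, so it was lower with DMSO where Nos2 was higher. Ptgs2, the inducible prostaglandin synthase, read 5.58, 6.01 and 5.25, and its second probe set 4.02, 4.68 and 3.77, higher in osteogenic medium and lower with DMSO on both.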
